A study of Mus musculus with 5 samples.

Results

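Genes of the Wnt and BMP pathways were examined for binding of ZFP24 (also known as ZFP191), a DNA-binding protein with zinc fingers, in mouse oligodendrocytes (OLG) and in the oligodendrocyte progenitor cells (OPC) from which they arise. The set was chosen by gene symbol from the GENCODE M21 basic annotation. It took protein-coding genes named Wnt, Fzd, Dvl, Axin, Smad or Bmp plus a number, genes starting with Bmpr or Acvr, and the co-receptors, destruction complex, Tcf/Lef, TGF-beta, Noggin and Chordin genes. This gave 78 of the 21668 genes with a protein-coding start. The symbol rule also took Bmp1, which encodes a secreted protease, and Bmp2k, which encodes a kinase, and these are kept apart from the ligands.

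ZFP24 was mapped by chromatin immunoprecipitation sequencing (ChIP-seq), in which DNA bound by the protein is recovered with an antibody and sequenced. The groups were wildtype OLG, Zfp191-null OLG, wildtype OPC, Zfp191-null OPC and an input pooled from both genotypes and cell types, with 1 library in each. All came from brains of C57BL/6 mice at postnatal day 7, and the OPC were isolated by immunopanning, while the OLG had differentiated in culture over 5 days, with PDGF withdrawn and 40 ng/ml of triiodothyronine added. The values were peak positions in 2 lists, 1752 peaks for OLG and 4643 peaks for OPC, with no score or read count. Library depth is therefore unknown, cell identity could not be checked from the lists, and no difference between OLG and OPC has a replicate check. A gene was counted as near a peak when the centre of a peak lay within 10 kb of the start of one of its protein-coding transcripts.

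In the Wnt pathway, secreted Wnt ligands bind Frizzled receptors and the co-receptors Lrp5 and Lrp6, Dishevelled proteins pass the signal on, and the destruction complex of Axin and APC no longer removes beta-catenin, which then acts in the nucleus with Tcf/Lef factors. BMP and TGF-beta ligands bind paired receptor kinases that phosphorylate Smad proteins, and Smad6 and Smad7 inhibit this path. In the oligodendrocyte lineage Wnt and BMP signals are known to hold back differentiation when they stay active. Tcf7l2 is known as a factor of newly forming oligodendrocytes, and Noggin blocks BMP ligands.

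Of the 78 genes, 8 had an OLG peak, or 10.3% (exact Clopper-Pearson 95% interval 4.53 to 19.2), against a background of 6.48% of all protein-coding genes. An OPC peak was near 14, or 17.9% (10.2 to 28.3), against a background of 12.8%. A peak of either list was near 21, or 26.9% (17.5 to 38.2), against 17.1%. The intervals cover counting error over genes only, and each of them contains its background except that for either list, whose lower bound of 17.5% lies just above 17.1%. Smad6 was the only member near a peak of both lists, 1 of 78 or 1.28%, against 2.11% of all genes.

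Members have GC-rich starts, and peaks of both lists were more frequent at such starts. Among all genes, an OLG peak was near 11.5% of those in the top GC quartile and 1.78% of those in the lowest, and an OPC peak near 20.0% and 3.74%. GC content was measured over 1000 bp centred on the start of the gene record. Peaks were counted near any start, and 39 members have several, so the measured start is not always the one near the peak. The median was 65.1% for members and 54.9% for all protein-coding genes, and 55 of the 78 members fell in the top GC quartile of all genes. Within that quartile 10.9% of members had an OLG peak, against 11.5% of all genes there. For OPC the shares were 18.2% of members and 20.0% of all genes, and for either list 29.1% and 27.7%. The shares of members within this quartile were thus close to the background. Its use as a background was chosen after seeing the data.

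**Figure D1:**
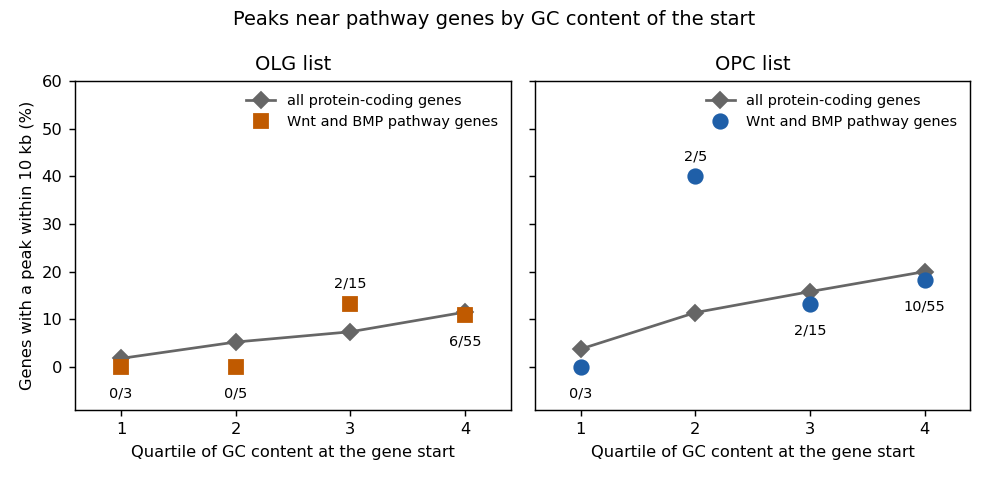
Share of genes with a ZFP24 peak within 10 kb of a start (y axis, percent) in each quartile of GC content of the 1000 bp around the gene record's start (x axis, lowest to highest), for the OLG list (left) and the OPC list (right). Coloured symbols are the Wnt and BMP pathway genes with their counts, and grey diamonds joined by lines are all protein-coding genes. In the top quartile, which holds 55 of the 78 members, members and all genes lie close together, at 10.9% and 11.5% for OLG and 18.2% and 20.0% for OPC.

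Among ligands, receptors and effectors, the effectors had the highest share and the ligands the lowest. The shares of all genes were 6.48% for OLG, 12.8% for OPC and 17.1% for either list. Of 19 effectors, 4 had an OLG peak (21.1%, exact 95% interval 6.05 to 45.6) and 6 an OPC peak (31.6%, 12.6 to 56.6). In all, 9 effectors had a peak in either list (47.4%, 24.4 to 71.1). These include Dvl2, whose peaks were closer to other genes, and 8 remained when each peak was given only to its nearest gene. Of 23 receptors, 3 had an OLG peak and 3 others an OPC peak (13.0% each, 2.78 to 33.6). Of 32 ligands, 1 had an OLG peak (3.12%, 0.0791 to 16.2) and 3 an OPC peak (9.38%, 1.98 to 25.0). The intervals of the roles overlap, and the difference between roles was not tested. In the top GC quartile, a peak of either list was near 6 of 15 effectors, 5 of 18 receptors and 3 of 18 ligands, against 27.7% of all genes there.

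**Figure D2:**
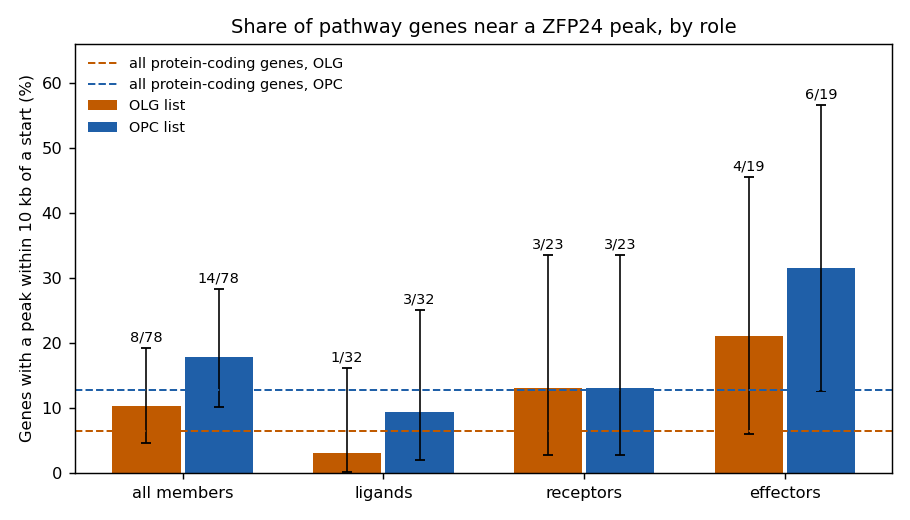
Share of genes with a ZFP24 peak within 10 kb of a start (y axis, percent) for all 78 members, ligands, receptors and effectors, with the OLG list in orange and the OPC list in blue. Bars are observed shares, error bars exact 95% binomial intervals, labels the counts, and dashed lines the shares of all protein-coding genes (6.48% OLG, 12.8% OPC). Effectors stand highest, at 21.1% for OLG and 31.6% for OPC, with wide intervals.

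The sequences under the peaks nearest to member starts are shown here because they are the sites that the gene assignments rest on. They are the 11 member peaks that hold a tandem TCAT tract or lie within 1 kb of a member's start, leaving out peaks centred in untranslated regions and the peak of Smad7. Each is the plus strand of GRCm38.p6, 5' to 3', without any bases in annotated untranslated regions. Capitals mark the tandem TCAT tract, the repeat that ZFP24 is known to bind, and the GC box CCGCCC, on either strand. Among effectors, the Dvl1 peak was in the OLG list and the Tcf7, Smad6 and Lef1 peaks were in the OPC list.
Dvl1 OLG peak, chr4:155847897-155848117: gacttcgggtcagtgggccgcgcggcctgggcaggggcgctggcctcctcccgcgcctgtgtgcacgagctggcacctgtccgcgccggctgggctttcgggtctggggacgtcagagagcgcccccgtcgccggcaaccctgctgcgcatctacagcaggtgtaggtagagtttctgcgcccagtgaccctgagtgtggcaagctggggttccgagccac
Tcf7 OPC peak, chr11:52282779-52282927: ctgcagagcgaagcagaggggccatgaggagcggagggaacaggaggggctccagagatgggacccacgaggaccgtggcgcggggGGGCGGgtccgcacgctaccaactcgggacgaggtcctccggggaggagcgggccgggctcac
Smad6 OPC peak, chr9:64022598-64022806: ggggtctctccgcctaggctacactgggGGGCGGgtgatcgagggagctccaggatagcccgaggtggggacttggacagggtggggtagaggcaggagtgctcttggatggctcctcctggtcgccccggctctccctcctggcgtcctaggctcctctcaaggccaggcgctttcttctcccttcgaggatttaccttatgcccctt
Lef1 OPC peak, chr3:131111988-131112196: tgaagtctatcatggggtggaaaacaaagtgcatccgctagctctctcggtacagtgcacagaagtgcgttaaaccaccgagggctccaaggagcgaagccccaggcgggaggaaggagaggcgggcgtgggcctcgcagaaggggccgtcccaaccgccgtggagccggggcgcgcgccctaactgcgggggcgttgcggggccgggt
The receptor peaks were those of Bmpr1b, Acvr1c and Fzd10 in the OLG list and of Bmpr2 and Acvr1 in the OPC list.
Bmpr1b OLG peak, chr3:142168942-142169144: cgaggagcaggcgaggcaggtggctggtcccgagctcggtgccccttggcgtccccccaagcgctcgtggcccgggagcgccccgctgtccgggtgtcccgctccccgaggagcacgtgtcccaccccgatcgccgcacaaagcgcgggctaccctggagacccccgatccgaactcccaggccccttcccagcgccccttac
Acvr1c OLG peak, chr2:58324473-58324693: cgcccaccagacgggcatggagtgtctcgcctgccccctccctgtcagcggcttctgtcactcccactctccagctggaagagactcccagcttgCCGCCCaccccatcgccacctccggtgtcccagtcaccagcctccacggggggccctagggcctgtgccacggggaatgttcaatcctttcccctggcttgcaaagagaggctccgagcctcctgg
Fzd10 OLG peak, chr5:128601218-128601431: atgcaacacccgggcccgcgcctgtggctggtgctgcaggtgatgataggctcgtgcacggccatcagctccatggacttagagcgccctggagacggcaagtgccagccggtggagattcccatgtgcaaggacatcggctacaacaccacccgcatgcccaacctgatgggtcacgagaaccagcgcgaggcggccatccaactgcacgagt
Bmpr2 OPC peak, chr1:59762997-59763205: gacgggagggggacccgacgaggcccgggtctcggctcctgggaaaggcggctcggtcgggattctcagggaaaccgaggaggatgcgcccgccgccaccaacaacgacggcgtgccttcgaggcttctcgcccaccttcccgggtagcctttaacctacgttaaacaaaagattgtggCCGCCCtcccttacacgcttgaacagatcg
Acvr1 OPC peak, chr2:58566043-58566251: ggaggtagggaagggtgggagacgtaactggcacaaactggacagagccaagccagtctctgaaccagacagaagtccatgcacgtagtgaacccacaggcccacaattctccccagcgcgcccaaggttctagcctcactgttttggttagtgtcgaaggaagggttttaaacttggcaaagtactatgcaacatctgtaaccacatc
The ligand peak at the Wnt2b start and the repeat peak in Bmp1 were both in the OPC list.
Wnt2b OPC peak, chr3:104961922-104962087: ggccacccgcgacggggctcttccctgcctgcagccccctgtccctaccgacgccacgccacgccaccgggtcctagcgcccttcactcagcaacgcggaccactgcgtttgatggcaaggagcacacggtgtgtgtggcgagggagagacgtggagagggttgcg
Bmp1 OPC peak, chr14:70513575-70513783: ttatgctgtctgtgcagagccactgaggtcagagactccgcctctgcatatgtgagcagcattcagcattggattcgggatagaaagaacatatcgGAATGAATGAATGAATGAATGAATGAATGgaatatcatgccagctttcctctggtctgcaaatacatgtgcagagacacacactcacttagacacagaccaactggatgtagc
A GC box was present once in each of the Tcf7, Smad6, Acvr1c and Bmpr2 sequences shown, and a tandem tract was present in the Bmp1 sequence.

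The Tcf/Lef factors bind DNA and carry beta-catenin at Wnt target genes. Of the 4 genes, 0 had an OLG peak within 10 kb, against 6.48% of all genes, and 3 had an OPC peak, against 12.8%. At the OLG share, 0 of 4 is no departure from the background. Tcf7 had an OPC peak 137 bp downstream of a start, in an intron, and its nearest OLG peak was 78488 bp away. Lef1 had OPC peaks on both sides of its first annotated start, 3702 bp upstream in intergenic sequence (chromosome 3, 131106665 to 131106873) and in an intron 705 bp upstream of another start, whereas its nearest OLG peak lay 1140534 bp away. Tcf7l2 had an intronic OPC peak 1912 bp downstream of a start (chromosome 19, 55744150 to 55744358) and its nearest OLG peak at 167106 bp. The remaining one, Tcf7l1, known mainly as a repressor, had its nearest OLG peak at 19224 bp and OPC peak at 25128 bp. The OPC list is the longer one, and the difference between the lists at these genes was not tested.

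The Dishevelled gene Dvl1 had an OLG peak 546 bp downstream of its start, in an intron, with its nearest OPC peak at 43972 bp. Dvl2 had no OLG peak nearer than 53288 bp and a pair of OPC peaks upstream at 4481 bp (chromosome 11, 69996010 to 69996218) and 9197 bp (69991294 to 69991502). Both Dvl2 peaks were closer to other genes, the first 238 bp from the start of Phf23 and the second 241 bp from that of Gabarap, so that Dvl2 was counted only because its neighbours lie close. Dvl3 was not near a peak, with OLG and OPC peaks no nearer than 199058 bp and 90670 bp. Of the 4 destruction complex and beta-catenin genes, 0 were near a peak of either list (exact 95% interval 0 to 60.2%), against 17.1% of all genes. For Ctnnb1, the beta-catenin gene, the nearest OLG peak was at 412798 bp and the nearest OPC peak at 29626 bp, and for Axin2, a widely used Wnt target, they were at 439885 bp and 16543 bp. The distances were 384532 bp and 382451 bp for Apc, and 48998 bp and 318003 bp for Axin1.

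Of 8 Smad genes, 3 had an OLG peak (37.5%, exact 95% interval 8.52 to 75.5), against 6.48% of all genes. An OPC peak was near 2 (25.0%, 3.19 to 65.1), against 12.8%. These differences from all genes were not tested. The 3 with an OLG peak were Smad3, which carries TGF-beta and activin signals, and the inhibitory Smad6 and Smad7. The Smad3 peak lay 95 bp downstream of the start, in the 5' untranslated region (chromosome 9, 63757789 to 63758009), the Smad6 peak 1013 bp downstream in a coding exon (chromosome 9, 64020909 to 64021129), and the Smad7 peak 678 bp upstream (chromosome 18, 75366741 to 75366961), inside the non-coding gene Gm20544. The OPC list had Smad6, at 643 bp upstream in intergenic sequence, and Smad1, a carrier of BMP signals, at 1065 bp downstream in an intron (chromosome 8, 79398349 to 79398557). The OLG and OPC peaks of Smad6 did not overlap, since their centres were 1683 bp apart on either side of the start. The other BMP Smads were further away, Smad5 with its nearest OLG peak at 149561 bp and OPC peak at 264643 bp, and Smad9 at 20395 bp and 20394 bp. The distances for Smad2 were 861234 bp and 118118 bp, and those for Smad4, the shared partner of the other Smads, were 403470 bp and 104301 bp.

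**Figure D3:**
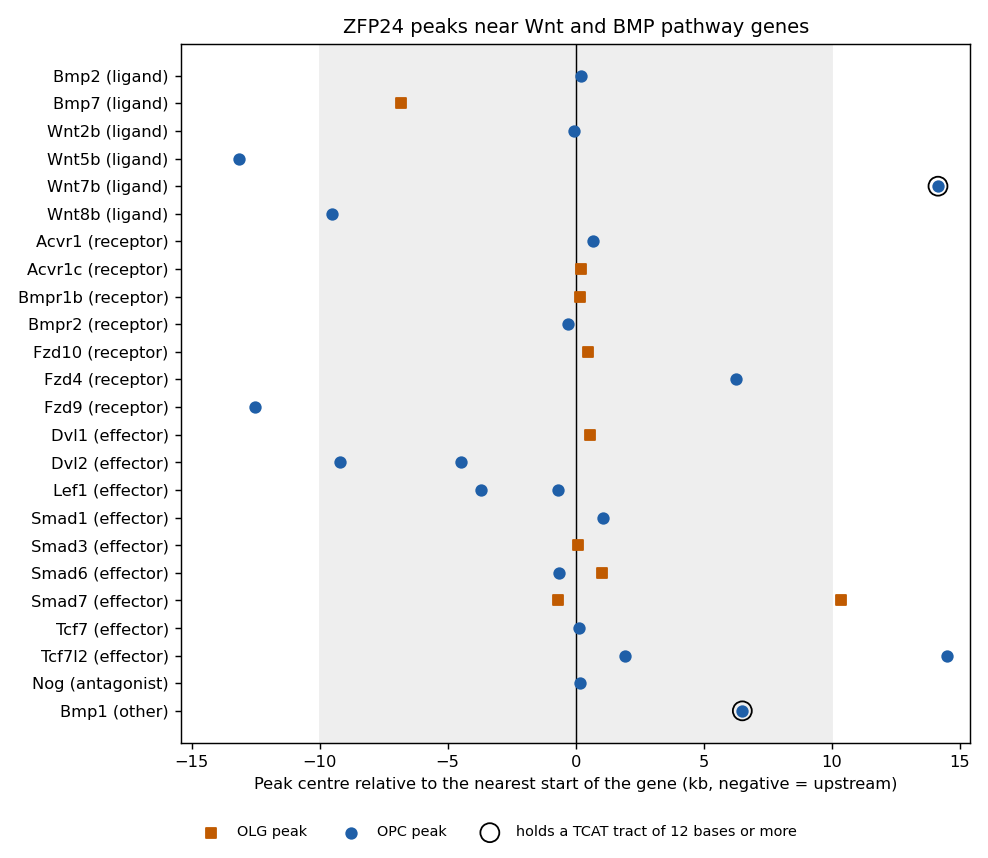
Position of each ZFP24 peak centre relative to the nearest start of the pathway gene (x axis, kb, negative upstream), for all 24 members with a peak within 15 kb (rows, by role). Orange squares are OLG peaks, blue circles OPC peaks, the grey band is the 10 kb window, and a black ring marks a TCAT tract of at least 12 bases in the 200 bp around the centre. Within the band, 6 of 8 OLG and 8 of 16 OPC peaks lie within 1 kb of the start, and Smad6 has a peak of each list on different sides of its start. The 2 ringed peaks are those of Bmp1, inside the band, and of Wnt7b, outside it.

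Among receptors, the BMP and activin receptor kinases had the most, with peaks near 4 of 9 genes, 2 in each list. In OLG, Bmpr1b, a type I BMP receptor, had its peak 161 bp downstream of a start, and Acvr1c, a type I receptor also called ALK7, had one 224 bp downstream, both in introns. In OPC, Bmpr2, the type II BMP receptor, had its peak 299 bp upstream, in intergenic sequence, and Acvr1, the type I receptor also called ALK2, had one 679 bp downstream in an intron. Of the 23 receptors, 0 were near peaks of both lists, against 2.11% of all genes, which reads as no trait of receptors. The nearest peak of the other list was 52406 bp away for Bmpr1b, 208252 bp for Acvr1c, 33510 bp for Bmpr2 and 191689 bp for Acvr1. Bmpr1a, another type I BMP receptor, had its nearest OLG peak at 232397 bp and OPC peak at 189564 bp. Neither Tgfbr1 nor Tgfbr2 had a peak of either list within 50 kb.

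Frizzled receptors had a peak near 2 of 10 genes. The OLG peak of Fzd10 lay 477 bp downstream of the start and covered the beginning of its coding exon, as the printed sequence shows with its initial atg. The OPC peak of Fzd4 lay 6249 bp downstream of the start, in the 3' untranslated region (chromosome 7, 89410500 to 89410708). Lrp5 and Lrp6 were not near a peak, with OLG peaks at 165647 bp and 353246 bp and OPC peaks at 289144 bp and 360093 bp.

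A peak of either list was near 4 of 32 ligand genes (12.5%, exact 95% interval 3.51 to 29.0), against 17.1% of all genes. Of the 19 Wnt genes, 0 had an OLG peak within 10 kb, against 6.48% of all genes, a share at which a count of 0 among so few genes says little. The closest was that of Wnt10b at 54283 bp. In OPC, Wnt2b had a peak 62 bp upstream of its start, and Wnt8b had one 9524 bp upstream in intergenic sequence (chromosome 19, 44483844 to 44484052). Of 10 BMP ligands, 2 had a peak of either list (20.0%, exact 95% interval 2.52 to 55.6), close to the 17.1% of all genes. Bmp7 had an OLG peak 6805 bp upstream, in intergenic sequence (chromosome 2, 172947016 to 172947236). Bmp2 had an OPC peak 207 bp downstream of its start, in the 5' untranslated region (chromosome 2, 133552262 to 133552470). Bmp4, a ligand much studied in the oligodendrocyte lineage, was far from both lists, with the nearest OLG peak at 1703425 bp and OPC peak at 273704 bp. None of the 3 TGF-beta ligands was within 10 kb of a peak (exact 95% interval 0 to 70.8%), against 17.1% of all genes, which says little for so few genes.

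Of the antagonists that bind BMP ligands outside the cell, Nog had an OPC peak 166 bp downstream of its start, in the 5' untranslated region (chromosome 11, 89302062 to 89302270), and its nearest OLG peak at 242089 bp. Chrd had its nearest OLG peak at 16963 bp and OPC peak at 81226 bp. Bmp1, a protease that cleaves procollagen and Chordin, had an intronic OPC peak 6509 bp downstream of its start, and its nearest OLG peak was at 389974 bp.

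**Figure D4:**
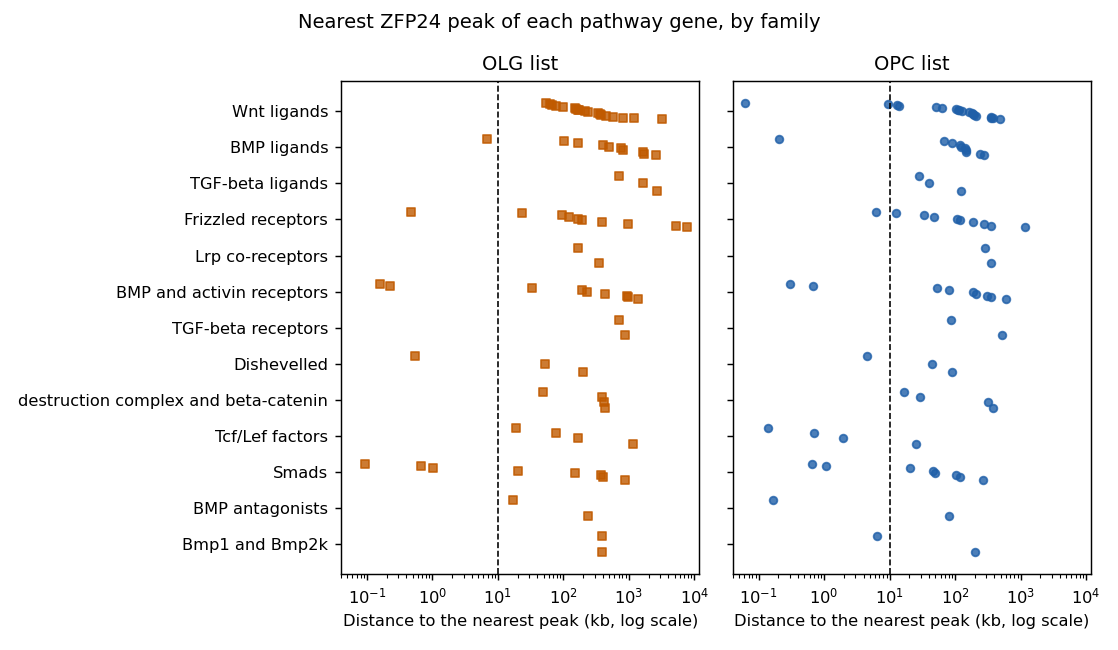
Distance from each of the 78 pathway genes to its nearest ZFP24 peak (x axis, kb, log scale) by gene family (rows), for the OLG list (left) and the OPC list (right). Each point is a gene, and the dashed line is the 10 kb window. Among Tcf/Lef factors, 0 of 4 are left of the line for OLG and 3 of 4 for OPC, where 6.48% and 12.8% of all protein-coding genes are, and most points of both lists lie to the right of it.

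Set by pathway, 2 of 42 Wnt genes (4.76%) and 6 of 36 BMP and TGF-beta genes (16.7%) had an OLG peak, against the background of 6.48%. In OPC the counts were 7 of each, or 16.7% and 19.4%, against 12.8%. The exact 95% intervals of the OLG shares, 0.582 to 16.2% and 6.37 to 32.8%, overlap, and the difference was not tested. The median distance of a member to its nearest peak was 239421 bp in OLG and 105523 bp in OPC, against 334651 bp and 129457 bp for all protein-coding genes.

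At the edge of the window, the member just inside it was Wnt8b, at 9524 bp, and those just outside were Fzd9 at 12511 bp, Wnt5b at 13128 bp and Wnt7b at 14150 bp, all with OPC peaks. The Wnt5b peak lay in a coding exon of Fbxl14, 671 bp from that gene's start. Smad7 had another OLG peak at 10370 bp and Tcf7l2 another OPC peak at 14492 bp. No other gene of the set had its nearest peak between 10 and 15 kb.

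Peaks within 1 kb of a member's start were counted next. Of 8 OLG peaks, 6 lay within 1 kb of the member's start, so that 7.69% of members had such a peak, against 4.07% of all genes. Of 16 OPC peaks, 8 did, for 10.3% of members against 8.21% of all genes. Counting the start of any protein-coding gene, 75.0% of OLG and 62.5% of OPC member peaks lay within 1 kb, near the 71.1% and 69.6% of all peaks within 10 kb of a start. The median distance was 511.5 bp for OLG and 885 bp for OPC peaks, and 6 OLG peaks lay downstream and 2 upstream, against 8 and 8 for OPC. The member was the gene with the nearest start for 8 of 8 OLG and 14 of 16 OPC peaks, the exceptions being the pair at Dvl2. By annotation, the OLG peaks were centred in introns (3), coding exons (2), a 5' untranslated region (1), a non-coding gene (1) and intergenic sequence (1), and the OPC peaks in introns (7), intergenic sequence (5), 5' untranslated regions (3) and a 3' untranslated region (1).

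The sequence of member peaks was set beside that of all peaks near genes. Their median GC content over 200 bp was 66.8% in OLG and 63.8% in OPC, against 65.5% and 59.5% for all peaks within 10 kb of a protein-coding start. The GC box CCGCCC was in 3 of 8 OLG and 5 of 16 OPC member peaks (37.5% and 31.2%), against 35.6% and 26.0% of those peaks. The Smad-type motif CAGACA was in 2 of 8 and 4 of 16 (25.0% each), against 12.2% and 13.4%. The Tcf/Lef motif ATCAAAG was in 0 of 8 and 0 of 16, against 1.61% and 1.73%. Motifs were searched on both strands over the whole peak, they are matches of letters only, and the counts are too few for a comparison.

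Tandem TCAT was rare both at member peaks and at all peaks within 10 kb of a start. Of the 24 member peaks, that of Bmp1 held a tract of at least 12 bases, which was 29 bases long. This gave 0 of 8 OLG and 1 of 16 OPC peaks, or 6.25%, against 4.07% and 6.56% of all peaks within 10 kb of a start. The shorter TCATTCAT, which every such tract contains, was also found in the OLG peak of Smad7. None of the 24 member peaks overlapped a peak of the other list, against 15.5% of OLG and 7.78% of OPC peaks within 10 kb of a start.

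Other genes of the pathways, a list of 108 of which 107 were found in the annotation, were counted in the same way. An OLG peak was near 10 of them, or 9.35%, against 6.48% of all genes, and an OPC peak near 20, or 18.7%, against 12.8%. The starts of their gene records were GC-rich too, with a median of 61.9%. Genes near peaks of both lists were Tle1, Bmper and Amh, 3 of 107 or 2.80%, against 2.11% of all genes. Tle1, a Groucho co-repressor that binds Tcf/Lef factors, had overlapping peaks 195 bp (OLG) and 191 bp (OPC) downstream of its start and another OLG peak 768 bp upstream. Bmper, a secreted regulator of BMP ligands, had overlapping peaks 284 bp (OLG) and 360 bp (OPC) upstream. The shared site counted for Amh, a TGF-beta family hormone, was 4728 bp (OLG) and 4726 bp (OPC) downstream, in an intron of Jsrp1, with a tract of 42 bases.

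Beside Tle1 and Bmper, which also had one, 7 of these 107 genes had an OLG peak within 1 kb of a start. Of all genes 4.07% had one. That share includes genes near peaks of both lists, so Tle1 and Bmper belong in the comparison with it. The difference was not tested. Sfrp1, a secreted Wnt antagonist, had a peak at 361 bp, Notum, an enzyme that inactivates Wnt proteins, at 301 bp, and Bambi, a decoy receptor of the TGF-beta family, at 168 bp. The Wnt co-receptor Ryk had one at 441 bp, the beta-catenin cofactor Pygo1 at 216 bp, the Smad anchor Zfyve9 at 310 bp and the activin subunit Inhbb at 565 bp.

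The OPC list held 12 of the 107 within 1 kb beside Tle1 and Bmper, which also had such a peak. Of all genes 8.21% had one, a share that again includes genes near peaks of both lists. This difference was not tested either. In the Wnt branch these were the kinases Csnk1a1 at 118 bp and Gsk3b at 926 bp, the R-spondin receptor Lgr5 at 254 bp, the polarity genes Prickle1 at 340 bp and Vangl1 at 500 bp, the co-repressor Tle4 at 744 bp and the target Myc at 415 bp. In the BMP and TGF-beta branch they were the co-receptor Rgmb at 297 bp, the ubiquitin ligase Smurf2 at 370 bp, the co-repressors Tgif1 at 142 bp and Ski at 756 bp, and the BMP target Id4 at 622 bp. Another BMP target, Id1, is singled out here although the rule for named genes did not take it, and was named after its value was seen. Its OPC peak, 2271 bp upstream, held the tract of 56 bases printed here in capitals beside the 42-base tract of the site counted for Amh, each with 10 bases on either side (plus strand, GRCm38.p6).
Id1 OPC tract, chr2:152733987-152734062: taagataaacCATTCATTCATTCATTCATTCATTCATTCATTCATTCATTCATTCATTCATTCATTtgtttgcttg
Amh OLG and OPC tract, chr10:80809896-80809957: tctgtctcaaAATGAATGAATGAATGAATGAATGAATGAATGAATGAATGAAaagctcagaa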

How the data were processed

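ChIP-seq used an antibody against ZNF24 and reads of 75 nt, and the mm10 build, HOMER 4.8.3 and BWA, whose version is not stated, are named in the submitters' processing notes. The deposited lists hold chromosome, start, end and a name in 4 columns, and no other value. How peaks were called, and with which controls, was not given in the sources used here. Every OLG peak was 221 bp wide and every OPC peak 209 bp. Depth is unknown. Both descriptions of a cell type's wildtype and null samples name the same list.

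Starts were those of protein-coding transcripts of protein-coding genes in GENCODE M21 basic (chromosomes 1 to 19 and X), sequences came from GRCm38.p6, and 0 peaks ran past a chromosome end. Distances run from the peak centre, and positions are 1-based. Lists overlap where peaks share at least 1 bp. Python 3.11.15, numpy 2.4.6, scipy 1.17.1, pandas 2.3.3 and pysam 0.24.0 were used, and steps were tested on simulated data. With 1 library per group no test was run. Members and lists were chosen with earlier results of these data known. Named genes were members with a peak within 10 kb or, as nearest, 10 to 15 kb, fixed core genes, and other pathway genes with a peak within 1 kb or in both lists. Further members are named beside their families, after their values were seen.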

Additional observations from a re-analysis of the deposited data

How the results depend on the processing

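Of 76 alternative values, 58 stayed within 1.5 times the reported count. With a window of 50 kb, 14 members had an OLG peak, 28 an OPC peak, 35 a peak in either list and 7 in both, and the counts were 8 ligands, 10 receptors and 14 effectors. Other pathway genes then numbered 24 for OLG and 38 for OPC. The share of all genes was then 15.1% for OLG, 29.2% for OPC, 36.6% for either list and 7.72% for both. With windows of 2 kb and 5 kb, 2 of 32 ligands remained at each. The share of all genes with a peak in either list was then 12.4% and 14.3%. A stricter peak threshold could not be tried, since the lists hold no score. With the lower-numbered part of each list by peak name, a number whose meaning is not given, 4 members had an OLG peak, 8 an OPC peak and 11 either, with 1 ligand, 2 receptors and 5 other pathway genes for OLG. Of all genes, 3.74% then had an OLG peak, 7.71% an OPC peak and 10.3% either. The counts did not fall alike, since 7 of 9 effectors and 17 of 20 other pathway genes with an OPC peak remained. Counting tracts of at least 8 bases gave 2 member peaks with TCAT instead of 1. Measuring to the nearest base of the peak kept the same 21 members. Giving each peak only to its nearest gene lost Dvl2, using the gene record's start alone lost Acvr1c, and leaving out tract peaks lost Bmp1. No paired analysis was possible because each group has 1 library. Depth is unknown, so a gene without a peak cannot be called unbound.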

Other observations

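TCAT tracts of at least 12 bases lay within 10 kb of the starts of 11 members, 13 tracts in all, of which 0 were at an OLG peak and 1, that of Bmp1, was at an OPC peak. Near all protein-coding genes, 2.01% of 2788 such tracts were at an OLG peak and 6.89% at an OPC peak. For tracts of 24 bases or more these shares were 4.22% and 18.3% of 616. The members held 4 of that length, the Bmp1 tract and tracts without a peak of either list near Smad5 (38 bases, 7923 bp upstream), Tgfb1 (28 bases, 3470 bp downstream) and Wnt9b (28 bases, 5657 bp upstream).

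The site of both lists nearest to a member, and the only one within 50 kb, was that upstream of Smad9, where the OLG peak (chromosome 3, 54735077 to 54735297) and the OPC peak (54735084 to 54735292) lay in the 5' untranslated region of Exosc8, at 206 bp and 205 bp from the start of that gene. Some members with peaks are neighbours on a chromosome. Acvr1c, with an OLG peak, and Acvr1, with an OPC peak, have starts 158377 bp apart on chromosome 2, and Smad3 and Smad6 have starts 264038 bp apart on chromosome 9.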
